A study of Arabidopsis thaliana with 8 samples.

Results

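In leaves of wild-type Arabidopsis thaliana, 272 protein-coding genes held several separate regions bound by an antibody against m6A (N6-methyladenosine), a methylated base found within messenger RNA. Overlapping same-strand peaks of the 2 wild-type lists were merged, and a region was kept when both lists contributed a peak. Each was assigned by its midpoint to an exon of a nuclear protein-coding gene on the same strand, and a gene was taken when it held at least 2 such regions. These genes held 548 regions, out of 5394 regions placed in 5118 protein-coding genes and 5513 regions in all; a further 119 regions lay in no exon of a lone protein-coding gene. The genes were thus chosen by the wild-type peak positions, and the counts, spacing and location of their wild-type regions are given as a description. The mta lists played no part in the choice.

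The series compared 2 genotypes of ecotype Col-0 by miCLIP-seq, in which m6A antibody is crosslinked to poly(A)+ RNA with ultraviolet light and the bound RNA is sequenced. In ABI3:MTA plants, written mta, the methyltransferase gene MTA is driven by the ABI3 promoter, which is active in embryos; wild-type (WT) plants were the comparison. RNA of both genotypes came from leaves 5 to 9 of plants 4 weeks old, and each genotype has 2 libraries of the m6A-bound fraction, with no label that says whether replicates were separate plants. The lists held 1934 and 2092 peaks in mta replicates 1 and 2, and 8973 and 6584 peaks in wild-type replicates 1 and 2. Read depth is unknown, so the number of peaks is the sole measure of yield, and a peak says nothing of the RNA level. No list had a peak in an exon of MTA, and leaf identity was not tested, since the lists hold no expression values. Leaf RNA mixes cell types, so fewer cells of a type and less RNA per cell cannot be told apart.

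In plants, m6A is placed on mRNA by a writer complex that includes the methyltransferases MTA and MTB with FIP37, VIR and HAKAI. The mark is concentrated near stop codons and in 3' UTRs, and proteins with a YTH domain read it. A common consensus around the methylated adenosine is RRACH (G or A, G or A, A, C, then A, C or U), and a transcript can carry the mark at more than 1 place.

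The sequences below show what a pair of separate regions looks like at the level of bases. They are the RRACH match nearest the midpoint of each region in genes where both mta lists had a peak at 1 region and neither had one at the other, shown because the regions of 1 gene differ there in mta status. The letters of that nearest match are in capitals with 8 bases on either side, and any further RRACH match in a stretch is left in lower case. Stretches run 5′ to 3′ on the transcript strand of the RefSeq copy of TAIR10 (TAIR10.1), with T for U. Of the 16 regions of the 8 genes named for this pattern, 12 had such a match within 50 nt of the midpoint. Over all 548 regions the share was 78.6%, close to that of lone regions, as given below. A match is no evidence of a methylated base.
AT3G45050 upstream region, met by both mta lists, chr3:16477213-16477233, plus strand: atgtttgaAAACTttcataca
AT3G45050 downstream region, met by neither, chr3:16477436-16477456, plus strand: atcttggaAGACTtttaaaga
AT3G56210 upstream region, met by neither, chr3:20853846-20853866, minus strand: caaggtgcGAACCttgtttaa
AT3G56210 downstream region, met by both mta lists, chr3:20852562-20852582, minus strand: tattcggaAAACActagttct
PK3 upstream region, met by neither, chr5:2625842-2625862, minus strand: agaaaagaAGACTctttatac
PK3 downstream region, met by both mta lists, chr5:2625725-2625745, minus strand: tgtattttGAACTttttagga
PAA1 upstream region, met by both mta lists, chr4:16120832-16120852, plus strand: tccgaaccAGACAgcataact
PAA1 downstream region, met by neither, chr4:16126059-16126079, plus strand: acatgtccAAACTctgcattg
EIF4A-III upstream region, met by neither, chr3:6866366-6866386, plus strand: gctcttttGAACAaacttaaa
EIF4A-III downstream region, met by both mta lists, chr3:6866522-6866542, plus strand: tacttgtaAGACTtttgctcg
AT1G10865 upstream region, met by neither, chr1:3614675-3614695, minus strand: atatgaagGGACAtgcaactt
AT1G80040 upstream region, met by neither, chr1:30109303-30109323, minus strand: tgtagtcaGGACAaacaaaca

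Nearly all of these genes held 2 regions. They numbered 268, and 4 genes held 3 regions; together they were 5.31% of the 5118 genes with a region (Clopper-Pearson 95% interval 4.72 to 5.96%, which like all intervals here covers counting error alone). The other 4846 genes held a lone region and are the comparison in what follows. The genes with several regions lay on the plus strand in 156 cases and on the minus strand in 116. Just outside the rule stood 777 genes with 1 region and a further peak in a single wild-type list, 539 of them with a further peak in replicate 1 and 257 in replicate 2. Peaks carry a score, the authors' whole-number value of unstated scale, which was turned into a percentile within its own list. Scores of different lists share no known scale, so scores given side by side do not measure a difference in m6A between lists or genotypes. Just inside the rule, the weaker region of a gene with 2 regions had a median percentile of 28.4 in replicate 1 and 39.4 in replicate 2. The further peaks just outside had median percentiles of 24.4 and 26.7.

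With the regions as defined, most genes held all of theirs in the 3' UTR. In 204 of the 272 genes (75.0%, interval 69.4 to 80.0%) every region lay in the 3' UTR of the representative transcript, which is the one with the longest coding sequence (CDS) of the gene. The share was 50.0%, 27.5% and 12.1% of the genes that still held several regions when gaps of up to 50, 100 and 200 nt were closed. In 51 genes regions lay in both CDS and 3' UTR, in 4 genes in the 5' UTR and the 3' UTR, and in 1 gene in the CDS alone. A further 12 genes had a region in an exon of another isoform, outside the representative transcript. Among regions, 86.3% of the 548 were in 3' UTRs and 9.85% in CDS, against 94.0% and 2.72% of the 4846 lone regions.

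Neighbouring regions were close to each other along the mRNA. Of 276 neighbouring pairs, 258 had both facing edges in the representative transcript, and the spliced gap between those edges had a median of 32.5 nt, with quartiles of 10 and 51.75 nt and a range of 0 to 3773 nt. The gap was at most 50 nt in 191 pairs (74.0%, interval 68.2 to 79.3%), at most 100 nt in 224 pairs, and over 300 nt in 13. Midpoints were a median of 134 nt apart, and 221 of 264 pairs fell between 75 and 200 nt. The narrowest region was 51 bp wide, which sets a floor to that distance. An intron of the representative transcript lay between the midpoints of 21 pairs. When regions separated by 50 nt or less were joined, 84 genes still held several; 51 did at 100 nt and 33 at 200 nt. How many genes count as having several regions thus rests on the gap allowed within a region.

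**Figure D1:**
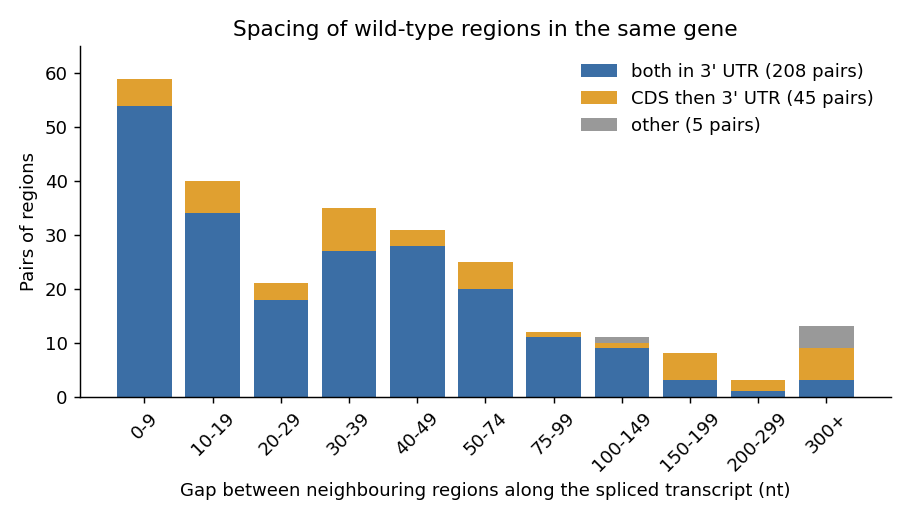
Number of neighbouring region pairs (y axis) by the gap between them along the spliced transcript in nt (x axis, bins of unequal width), coloured by location of the 2 regions. Most of the 258 pairs are within 50 nt of each other, and pairs with a CDS region make up much of the long-gap end.

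In the 202 genes with 2 regions that both lay in the 3' UTR, the upstream region was centred a median of 79 nt past the stop codon and the downstream region 212 nt past it. The downstream midpoint was a median of 112 nt from the annotated end of the transcript, and the nearest was 7 nt from it. Upstream and downstream regions were alike in width, with medians of 94.5 and 92 bp. Over all 3' UTR regions, those of genes with several regions were centred a median of 145 nt past the stop codon, against 115 nt for lone regions.

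**Figure D2:**
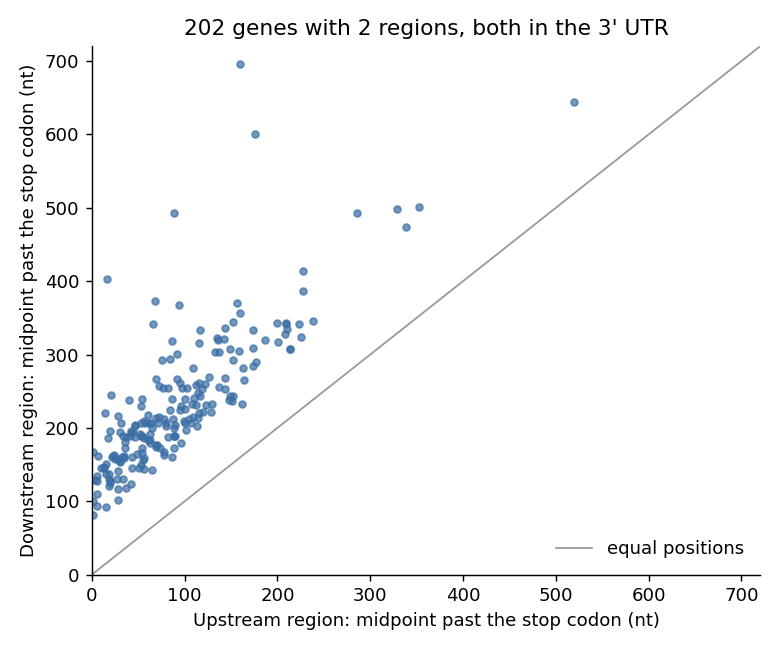
Midpoint of the upstream region (x axis) and of the downstream region (y axis) in nt past the stop codon, 1 point for each of the 202 genes with 2 regions in the 3' UTR; the line marks equal positions. Points form a band above the line, with the upstream region mostly within 122.75 nt of the stop codon (the upper quartile) and a few genes with a far downstream region.

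Genes with several regions had longer 3' UTRs. The median length was 339 nt, against 273 nt in genes with a lone region (quartiles 262.75 and 435.25 nt against 213 and 353.75 nt). The CDS differed little in median length, at 1093.5 against 1077 nt, and so did the number of exons, at 8 against 7. Over 4 groups of genes ordered by 3' UTR length, the share that held several regions was 2.01% up to 215 nt, 4.32% from 216 to 276 nt, 6.11% from 277 to 358 nt and 8.87% above that. The annotated length limits how many regions a 3' UTR can hold, and its part in these counts was not tested.

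**Figure D3:**
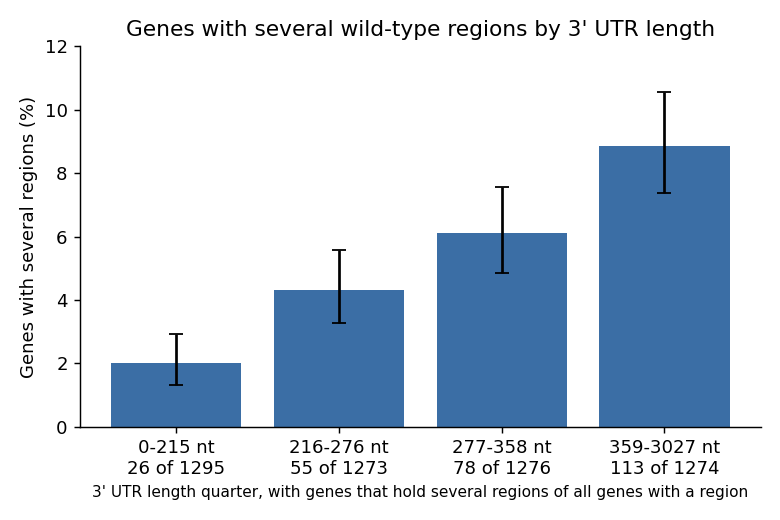
Share of genes with a wild-type region that held several (y axis, percent, bars with Clopper-Pearson 95% intervals) in 4 groups by 3' UTR length in nt (x axis, with counts of genes). The share goes up with each length group, being 2.01% in the shortest and 8.87% in the longest.

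The genes with 3 regions, chosen after their values were seen because the planned set of genes with at least 4 was empty, each held a row of them. CCT1 (AT2G32260) encodes an enzyme of phosphatidylcholine synthesis. Its regions lay on chromosome 2 from 13700210 to 13700332, 13700373 to 13700454 and 13700490 to 13700573, all in a 3' UTR of 400 nt, with gaps of 40 and 35 nt. Their scores were 30, 23 and 69 in wild-type replicate 1 and 21, 36 and 35 in replicate 2. No mta peak met any of them. Each had an RRACH match within 50 nt of its midpoint, as most regions did. The nearest matches are printed here in the same format to show how the 3 regions differ.
CCT1 region 1, chr2:13700253-13700273, plus strand: gcttgcagAAACCtcagatta
CCT1 region 2, chr2:13700393-13700413, plus strand: tgtgtgttGAACAaacgaacg
CCT1 region 3, chr2:13700521-13700541, plus strand: attgtctaAAACAggataagt

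CEF (AT3G44340) had 3 regions within its 3' UTR of 376 nt, with gaps of 8 and 9 nt, which together ran on chromosome 3 from 16011623 to 16011877. AT5G43100, annotated as an aspartyl protease, had its regions centred at -24, 83 and 206 nt, counted from 1 at the first base after the stop codon, so that the first lay in the CDS. Its middle region scored 108 and 42 in wild-type replicates 1 and 2, above its neighbours in both lists. AT5G47690, annotated as a binding protein, had its CDS region at -561 nt and its 3' UTR regions at 104 and 287 nt on the same count. None of the 12 regions of these 4 genes was met by an mta peak. Of all 5394 placed regions, 85.1% were met by neither mta list, so this is no trait particular to these genes.

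Regions in both CDS and 3' UTR ranged from neighbours on either side of the stop codon to distant pairs. Over the 51 pairs of a CDS with a 3' UTR region, 45 had a spliced gap, with a median of 42 nt, and 12 had an intron between. AtPOT1a (AT2G05210), a telomere protein, had a CDS region (chromosome 2, 1894112 to 1894188) and a 3' UTR region 8 nt further on. In wild-type replicates 1 and 2 the CDS region scored 102 and 42, and the 3' UTR region 44 and 32. PSK3 (AT3G44735), a precursor of the peptide hormone phytosulfokine, had regions centred at -13 and 123 nt. The CDS region was met by no mta peak and had wild-type scores of 72 and 36; the 3' UTR region scored 41 in mta replicate 2, had no peak in mta replicate 1, and scored 85 and 35 in wild type. AT1G73090, a WD repeat protein, and AT5G66060, an oxygenase, likewise had regions on either side of the stop codon. Their midpoints were 152 nt apart in AT1G73090 and, with an intron between, 199 nt apart in AT5G66060.

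In other genes the CDS region lay further upstream. In emb1579 (AT2G03150), annotated as an ATP/GTP-binding protein, it lay on chromosome 2 from 953769 to 953846 and the 3' UTR region from 958972 to 959185, with 14 introns and 2866 nt of mRNA between them. Scores there were 43 and 50 upstream, and 84 and 35 downstream, in wild-type replicates 1 and 2. AT1G79990, a coatomer subunit of vesicles that return cargo to the endoplasmic reticulum, had regions 409 nt apart by midpoint, with scores of 49 and 42 upstream, and 142 and 43 downstream. The widest gap of all 258 was in AT1G20920, named after its value was seen, at 3773 nt with no intron between. The gene with both regions in CDS, AT4G25390, encodes a protein kinase and had scores of 20 and 19 upstream, and 31 and 35 downstream.

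In 4 genes, named after their values were seen, a region lay in the 5' UTR. These were AT1G02305, a cysteine proteinase; GDPD4, a phosphodiesterase; GPX5, a glutathione peroxidase; and AT5G66530, a galactose mutarotase-like protein. In GPX5 (AT3G63080) the 5' UTR region (chromosome 3, 23309752 to 23309905) scored 62 and 35 in wild-type replicates 1 and 2. The 3' UTR region lay 863 nt of mRNA further on and scored 72 and 21. The AT5G66530 5' UTR region was met by an mta peak of replicate 1 that scored 26, and no mta peak met the other regions of these 4 genes. Among the 4846 lone regions, 1 lay in a 5' UTR.

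The 6 genes with the longest distance between regions of 1 3' UTR included AT3G56210, an ARM repeat protein, at 536 nt and AT4G14300, an RNA-binding protein, at 425 nt, with 2 introns and 1 intron of the 3' UTR between their regions. VPS54 (AT4G19490), a subunit of a tethering complex at the Golgi, had regions 404 nt apart (chromosome 4, 10622981 to 10623065 and 10623392 to 10623462). The upstream one had wild-type scores of 76 and 35 and the downstream one 84 and 28. CYP72A11, a cytochrome P450, AT1G04140, a WD-40 repeat protein, and ATS1, a plastid acyltransferase of lipid synthesis, had distances of 387, 305 and 275 nt.

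Within a gene the downstream region tended to have the higher score. In the 268 genes with 2 regions, the downstream score was higher in 173 and lower in 88 in wild-type replicate 1, and higher in 139 and lower in 92 in replicate 2. Both lists had the downstream region higher in 112 genes and the upstream region higher in 48; the lists gave opposite orders in 66 genes, and at least 1 list had a tie in the remaining 42. Of the 160 genes with the same order in both lists, 70.0% (interval 62.3 to 77.0%) thus had the higher score downstream. The share was 66.9% of 118 among pairs in the 3' UTR and 79.4% of 34 among pairs of a CDS with a 3' UTR region. The 2 lists share their genotype, and genes are not replicates.

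**Figure D4:**
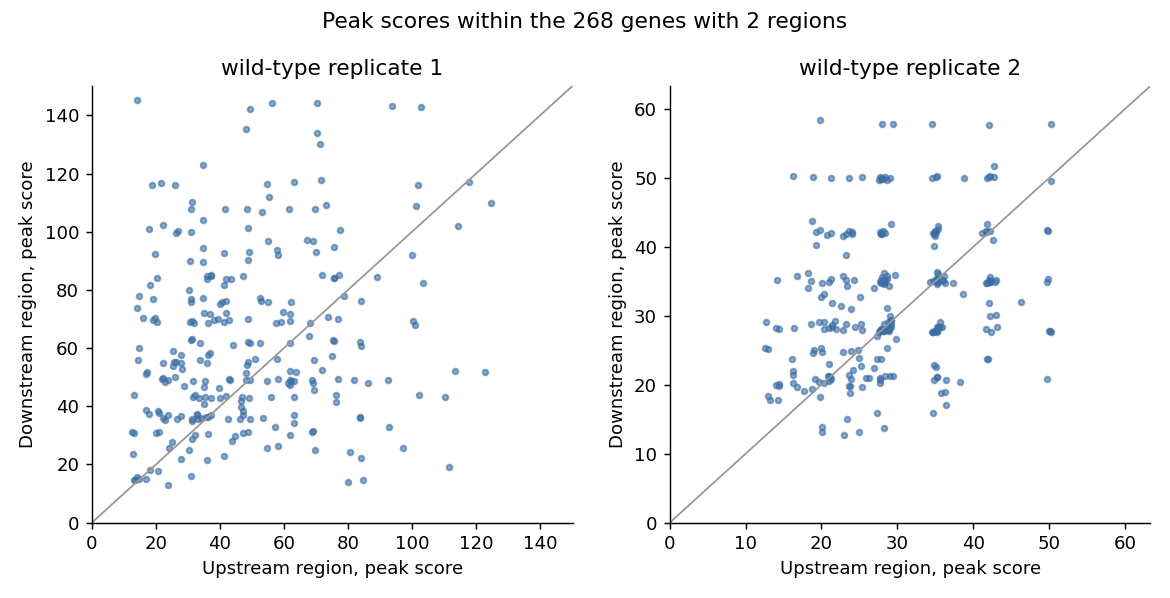
Peak score of the upstream region (x axis) and the downstream region (y axis) in each of the 268 genes with 2 regions, for wild-type replicate 1 (left) and replicate 2 (right); the line marks equal scores and points are shifted by under 0.5 at random to show ties. More points lie above the line in both lists, 173 against 88 below it in replicate 1 and 139 against 92 in replicate 2.

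The regions ranked lower and were narrower than lone regions. Their median score percentile was 47.3 in wild-type replicate 1 and 39.4 in replicate 2, against 68.1 and 62.8 for lone regions. Their median width was 91 bp against 127 bp. Both measures depend on the merging of overlapping peaks, since a region took the score of its highest peak in each list. Of the 548 regions, 537 held 2 wild-type peaks, as did 4489 of the 4846 lone regions, and the others held more. The part of merging in these differences was not tested.

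Few of the regions overlapped an mta peak, and a smaller share than of lone regions. An mta peak met a region when it lay on that strand and shared 1 bp or more with it. Of the 548 regions, 54 were met by a peak of at least 1 mta list (9.85%, interval 7.49 to 12.7%), whereas 14.9% of all 5394 placed regions were, and 15.4% of lone regions (interval 14.4 to 16.5%). The peaks of mta replicate 1 met 6.57% of the regions, against 11.9% of lone regions and 11.4% of all. Those of mta replicate 2 met 6.20%, against 10.3% and 9.84%. Both mta lists met 16 of the 548 regions (2.92%), where they met 6.36% of all placed regions. Within 3' UTRs the shares were 9.73% of 473 against 15.9% of 4556 lone regions, and within CDS 7.41% of 54 against 6.06% of 132. No test over regions was made, as regions of 1 library are not replicates. The share met by no mta peak was 5.58 percentage points above lone regions (interval 2.60 to 8.17). Intervals of this difference take regions as independent, although those of 1 gene are often close neighbours, so they are no test. The difference was 1.06 points (interval -2.49 to 4.27) when mta peaks within 100 nt also counted. Without wild-type replicate 1 and replicate 2 it was 2.16 and 2.72 points. With an overlap of 0.5 of the shorter peak it was 6.29 points. With gaps of up to 50, 100 and 200 nt closed it was 6.05, 6.81 and 6.44 points. Intervals there were 0.506 to 10.1, -0.456 to 11.6 and -3.26 to 12.2.

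Split by width, the shares were close up to 123 bp, and lower than those of lone regions above it. The part of width in the difference was not tested. Among regions up to 90 bp wide, 7.01% of 271 were met, against 7.29% of 1097 lone regions of that width, and from over 90 to 123 bp 12.3% of 155 against 12.2% of 1211. Among regions of over 123 to 164 bp the shares were 10.5% of 86 against 15.9% of 1248, and among wider ones 19.4% of 36 against 24.9% of 1290, with intervals that overlap. Within 4 groups by mean score percentile, from lowest to highest, 9.62%, 8.93%, 10.4% and 12.1% of the regions were met, against 14.8%, 12.8%, 15.2% and 18.9% of lone regions.

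**Figure D5:**
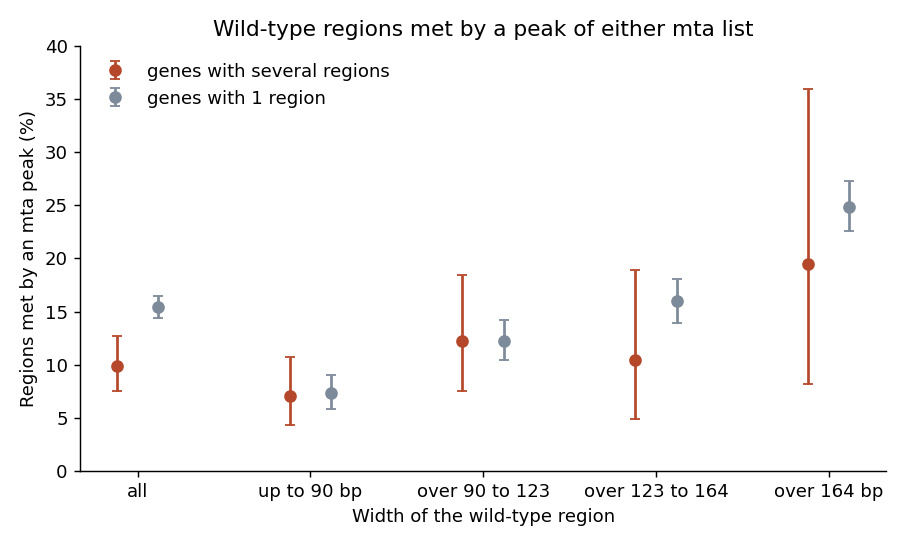
Share of wild-type regions met by a peak of at least 1 mta list (y axis, percent, with Clopper-Pearson 95% intervals) over all regions and in 4 groups by region width in bp (x axis), for genes with several regions and genes with 1 region. Over all widths the shares are 9.85% and 15.4%, while up to 123 bp the points of the 2 kinds of gene nearly coincide.

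Counted by gene, the intervals overlapped, but the measures are unlike. A gene with several regions has more regions that an mta peak can meet than a gene with a lone region. An mta peak met at least 1 region in 48 of the 272 genes (17.6%, interval 13.3 to 22.7%), against 15.4% of genes with a lone region and 15.6% of all genes with a region. Among the 268 genes with 2 regions, neither was met in 220, exactly 1 in 42 and both in 6. Where 1 was met, it was the upstream region in 23 genes and the downstream region in 19. It was the wider of the pair in 28 genes and the narrower in 14. It had the higher score in 17 genes and the lower in 24 in wild-type replicate 1, and the higher in 19 and the lower in 18 in replicate 2.

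In some genes the 2 mta lists had a peak at the same region and none at its neighbour. In 13 genes 1 region was met by both mta lists and another by neither, and the 8 of highest mean percentile are named here. EIF4A-III (AT3G19760), the RNA helicase at the core of the exon junction complex, had an upstream region (chromosome 3, 6866280 to 6866423) that no mta peak met; its wild-type scores were 103 and 25. Its downstream region, from 6866466 to 6866581, scored 35 and 39 in the mta lists and 82 and 50 in the wild-type lists. The regions, whose RRACH matches are printed above, were 42 nt apart. PK3 (AT5G08160), a serine/threonine protein kinase, showed the same order across a gap of 6 nt. The downstream region, on chromosome 5 from 2625627 to 2625801, scored 24 and 35 in the mta lists. In the wild-type lists it scored 144 and 50. The upstream region was met by no mta peak and scored 56 and 35 in wild type.

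AT3G45050, annotated as an uncharacterized protein, had the order turned round. Its upstream region, on chromosome 3 from 16477139 to 16477379, scored 48 and 91 in the mta lists and 103 and 42 in the wild-type lists. Its downstream region, 2 nt away, was not met in mta and scored 143 and 58 in wild type, the highest mean percentile of the 16 regions of these 8 genes. PAA1 (AT4G33520), a copper-transporting ATPase of chloroplasts, had the met region in an exon of another isoform (chromosome 4, 16120795 to 16120922). It scored 37 and 47 in the mta lists, and 89 and 36 in the wild-type lists. Its 3' UTR region, 5119 bp downstream in the genome, was met by no mta peak and scored 84 and 36 in wild type. In AT3G56210 the far downstream region had mta scores of 30 and 47 and wild-type scores of 102 and 50. Its upstream region was met by no mta peak and scored 114 and 39 in wild type. An annotated transcript end lay between the midpoints in PAA1, AT3G56210 and AT3G45050. AT1G10865, a cytochrome c oxidase assembly factor, AT2G14835, a RING/U-box protein, and AT1G80040, a ubiquitin-binding protein of the Cue type, all had the downstream region met by both mta lists and the upstream region by neither. In mta replicates 1 and 2 their met regions scored 41 and 83, 24 and 57, and 57 and 56. The AT2G14835 region was met by 0 mta peaks when overlaps had to cover 0.5 of the shorter peak.

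AT4G16442, of the uncharacterized family UPF0497, was the gene whose regions were all met by both mta lists. Its CDS region, on chromosome 4 from 9272117 to 9272196, had mta scores of 16 and 47, against 62 and 23 in wild type. Its 3' UTR region, from 9271862 to 9271990, had mta scores of 30 and 64, against 76 and 36 in wild type. The other 5 genes with both regions met, named after their values were seen, were RVE8, HS1, AT4G08330, AT5G17560 and AT5G40670, each with at least 1 region met by a lone mta list. In HS1, a heat stable protein, and AT5G17560, a BolA-like protein, mta replicate 1 alone met both regions; with the overlap of 0.5, HS1 held 1 region. In AT4G08330 replicate 1 met the upstream region and replicate 2 the downstream one, and in AT5G40670, a PQ-loop protein, the replicates were the other way round.

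Of 5 lists of genes for m6A machinery, clock and light, abscisic acid, immune signalling and mRNA decay, 100 of 114 symbols matched the annotation, 32 of these genes had a region and 3 had several, where 5.31% of all genes with a region did. RVE8 (AT3G09600), a clock transcription factor, had regions 10 nt apart near the end of a 3' UTR of 744 nt. The upstream region had mta scores of 35 and 35, against 55 and 23 in wild type. The downstream region scored 85 in mta replicate 2 and had no peak in mta replicate 1, and scored 116 and 42 in wild type. ABF4 (AT3G19290), a transcription factor of abscisic acid responses, and MPK6 (AT2G43790), a mitogen-activated protein kinase of immune and stress signalling, had pairs 4 and 1 nt apart that no mta peak met. Their wild-type scores were 36 and 17 upstream, and 84 and 36 downstream, in ABF4, and 32 and 50, and 69 and 28, in MPK6. The m6A list had 1 gene with a region and the mRNA decay list 8, and 0 of these had several, numbers too small to set against 5.31%.

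Beside the wild-type regions, mta peaks in these genes lay mostly in CDS. The mta lists had 58 and 52 peaks with midpoints in the 272 genes, and 21 and 18 of these met no wild-type region; 20 and 17 of them lay in CDS. Leaving out peaks that meet a region, most of which are in 3' UTRs, favours the CDS by construction. Of all peaks placed in these genes, 54.9% ± 4.35 in mta and 87.9% ± 0.0920 in wild type lay in the 3' UTR (SD, n = 2 each; exact two-sided permutation p = 0.33, the smallest that 2 libraries against 2 allow). The CDS held 43.1% ± 4.45 in mta and 11.4% ± 0.0400 in wild type (SD, n = 2 each). The genotypes did not overlap: the 3' UTR shares were 51.9% and 58.0% in mta libraries, against 88.0% and 87.9% in wild-type libraries. In all other genes they were 53.6% and 44.2% in mta libraries, against 91.7% and 91.0% in wild-type libraries. The wild-type peaks here are largely those that chose the genes.

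In 8 genes, chosen after their values were seen, both mta lists had a peak away from the wild-type regions. In GP ALPHA 1 (AT2G26300), the alpha subunit of the heterotrimeric G protein, the CDS peaks spanned 11199200 to 11199266 of chromosome 2 in mta replicate 1 and 11199208 to 11199278 in replicate 2. Their scores were 69 and 74. XPO1A (AT5G17020), a nuclear export receptor, had CDS peaks with scores of 29 and 50, and PDF1B (AT5G14660), a peptide deformylase of organelles, 32 and 47. The others were MEE5, AT1G52590, RAD23B, SFP1 and ATTPPA, each with a CDS peak in both mta lists.

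RRACH was about as frequent near these regions as near others. It was found on the transcript strand within 50 nt of the midpoint of 78.6% of the 548 regions (interval 75.0 to 82.0%), against 77.9% of lone regions and 77.9% of all 5394. On the reverse strand of the same windows it was found in 82.1% and 84.0%, both above the shares on the transcript strand. Of the 268 genes with 2 regions, both windows held it in 164, 1 in 93 and neither in 11; the windows of 40 of the 276 pairs overlap. Within 25 nt the share was 58.6%, which is 4.43 percentage points above lone regions (interval -0.0514 to 8.82). Within the bases of the region itself the difference from lone regions was -5.58 points (interval -9.42 to -2.02), where the regions are also narrower.

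UGUA, the core of a plant motif reported near m6A, was less frequent than near lone regions, at 63.7% (interval 59.5 to 67.7%) against 71.8% (70.5 to 73.0%), and 70.9% of all. On the reverse strand of these windows it was found in 36.7%, and in 39.6% of all placed regions. URUAY (U, A or G, U, A, then C or U), which overlaps UGUA where its second base is G and its last is C or U, was found in 55.7% against 61.2%, and in 60.6% of all. Within 3' UTRs UGUA was found in 67.2% of 473 regions against 72.4% of 4556. A match is a string of letters in the window and no evidence of a methylated base.

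The genes were spread over many functions. Over 13 classes by keyword of the product name, which can overlap, the share of genes with a region that held several ran from 2.78% of 36 ribosomal protein genes to 9.71% of 103 phosphatase genes. The interval of all 13 classes held the 5.31% of all genes. Products named kinase had several regions in 18 of 252 genes, among them MPK6, MPK5, BIN2 of brassinosteroid signalling and the ethylene receptor ETR1. Ubiquitin pathway genes had several in 12 of 158 and RNA-binding proteins in 10 of 116. Transcription factors had several in 5 of 97 and transporters in 6 of 142.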

How the data were processed

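Of the 8 libraries in the labels, the 4 of the m6A-bound fraction have peak lists, which were analysed here; the supernatant libraries were not analysed here. The submitters' processing notes name TAIR10, the peak caller MACS2 and the aligner STAR 2.4.0. Version, control and threshold of MACS2: not given in the sources used here. Peaks were called on each library alone and each strand apart, per the peak names in the files. The score is the authors' whole-number value in the deposited lists, of unstated scale, used to rank peaks within a list and, at 50, to filter.

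Genes came from the RefSeq copy of TAIR10 (TAIR10.1), and all 19528 nuclear peaks ended within its chromosomes. Midpoints shared by exons of overlapping same-strand genes were left out. Positions refer to the representative transcript. Regions, spacing and meeting by mta peaks were computed with Python 3.11.15, NumPy 2.4.6 and SciPy 1.17.1, and the code was tested on simulated data with peaks planted at known transcript positions. The members, lists and alternatives were chosen with earlier results of these data known. Named genes followed a rule: genes with 4 or more regions (there were none), the 6 genes of highest mean percentile with CDS and 3' UTR regions, the 6 widest 3' UTR pairs, the genes with all regions met by both mta lists, 8 with 1 region met by both and another by neither, those with CDS regions alone, and the members of the 5 lists; ties went to the lower identifier. Other named genes were chosen after their values were seen. Alternatives covered threshold, overlap, gene model, libraries, joined regions, distance, list length and motif.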

Additional observations from a re-analysis of the deposited data

How the results depend on the processing

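Of 95 alternative values of 10 main results, 52 counted as the same, 36 as moved and 7 as reversed in sign. The same meant within the interval of the reported value. For the number of genes it meant within a set ratio, and for the genotype difference in 3' UTR share it meant the same sign. The number of genes, 272 here, depended on the definition of a region. It was 84, 51 and 33 with gaps of 50, 100 and 200 nt closed, and 1 with scores of at least 50. A score of 50 stood at percentile 49.9 in wild-type replicate 1 and 94.6 in replicate 2. That threshold thus removed most peaks of replicate 2, and few regions could pass it in both lists. With 1 wild-type list left out the number of genes was 765 to 1207. All 272 were among both of these larger sets, which the definition nearly fixes, since each region holds a peak of both lists. The 1 and 4 genes left with scores of at least 50, or with every list shortened to 1934 peaks, are too few to read. Their values were 50.0% and 62.5% of regions not met in mta, differences of -37.5 and -20.1 percentage points from lone regions, and 100% and 75.0% of genes met. With scores of at least 50, 0% of genes had all regions in the 3' UTR and 100% of regions had RRACH, 18.3 points above lone regions; spacing, score order and the genotype difference in 3' UTR share gave no value. With the shortened lists 50.0% of agreeing pairs had the higher score downstream.

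With gaps of 50, 100 and 200 nt closed, 50.0%, 27.5% and 12.1% of genes had every region in the 3' UTR and the median distance was 210, 304 and 805 nt. Without 1 wild-type list these were 61.6 to 65.1% and 121 to 126 nt. The share of regions not met in mta (90.1%) ran from 87.9 to 93.8% over the libraries left out, and the share of genes met (17.6%) from 11.8 to 21.6%; without an mta list fewer peaks can meet a region. The difference from lone regions in the share not met (5.58 points) was 2.16 to 5.36 points over the libraries left out. With gaps of 50, 100 and 200 nt closed it was 6.05, 6.81 and 6.44 points. It was 1.06 points when mta peaks within 100 nt counted, where 83.4% were not met; the close neighbour of a met region then also counts.

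The RRACH share was 58.6% and 91.6% within 25 and 100 nt, and the difference from lone regions 4.43 and -0.800 points; without 1 wild-type list it ran from -0.898 to 1.51 points, and within the region's own bases, an alternative chosen after seeing the data, it was -5.58 points. URUAY and UGUA gave 55.7% and 63.7%, and -5.55 and -8.08 points. With the replicate block, the 3' UTR share in mta minus wild type was -33.0 points, with an exact sign-flip p of 0.5, the smallest 2 pairs allow; replicate numbers are not known to pair libraries. The share of pairs with the higher score downstream ran from 66.2 to 76.5% over the alternatives other than the shortened lists. Of the 36 named genes, 35 kept 2 or more regions with an overlap of 0.5 of the shorter peak and 0 with scores of at least 50. Depth is unknown, so a region absent from a list may have been missed.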

Other observations

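Some related genes each held several regions; these were picked after their values were seen and are given as values. The nucleosome assembly genes NAP1;1 (AT4G26110) and NAP1;3 (AT5G56950) each had a region in the CDS and another in the 3' UTR, with 2 introns between, and no mta peak at either. Counted from the stop codon, the CDS regions were centred at -133 nt in NAP1;1 and -163 nt in NAP1;3, and the 3' UTR regions at 138 and 140 nt. NAP1;2 (AT2G19480), of the same family, had both regions in the 3' UTR, 19 nt apart with no intron between, and no mta peak at either. Wild-type scores of the CDS regions were 28 and 28 in NAP1;1 and 31 and 28 in NAP1;3.

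The kinases GRIK1 (AT3G45240) and GRIK2 (AT5G60550), named for interaction with a geminivirus protein, each had 2 regions in the 3' UTR, 1 and 67 nt apart, that no mta peak met. In mta replicate 1 each also had a CDS peak away from them, with scores of 33 and 29. The YABBY transcription factors YAB2 (AT1G08465) and YAB5 (AT2G26580) each had 2 regions in the 3' UTR, 90 and 49 nt apart, that no mta peak met. In wild-type replicate 1 alone, the upstream and downstream regions scored 69 and 31 in YAB2, and 19 and 77 in YAB5. An order in 1 list need not hold in the other. The wild-type lists gave opposite orders in 66 of the 268 genes with 2 regions.

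An annotated end of some transcript of the gene lay between the 2 midpoints in 13 of the 276 neighbouring pairs, and in 6 of the 208 pairs within the 3' UTR.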
